A study of Mus musculus with 12 samples.

Results

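The mRNAs of caveolae were followed here through 6 genes, the caveolins Cav1 and Cav2, the cavins Cavin1, Cavin2 and Cavin3, and Ehd2. These genes were measured in total and polysome-bound RNA of mixed cells cultured from the fat of obese mice. They were taken by name from their known part in caveolae, and they are 6 of the 35523 genes with a transcript in the data. All 6 had 666 reads or more in every library and passed the filter on low counts in every comparison. The cells were the stromal vascular fraction (SVF), the mixed progenitor, immune and vascular cells left once floating adipocytes are removed, from epididymal fat (eWAT) of male Lepob/Lepob (ob/ob) mice, 12 weeks old, which lack leptin. Every culture received an adipogenic cocktail of isobutylmethylxanthine, dexamethasone and insulin, and then insulin alone, up to day 4. The Rosi cultures had in addition 1 µM rosiglitazone, an agonist of the nuclear receptor PPARγ, and the Veh cultures its solvent DMSO. From each treatment, total RNA (input) and RNA pooled from the heavy fractions of a sucrose gradient (polysome; 3 or more ribosomes on an mRNA by the series text, over 3 by the article) were sequenced as poly(A) libraries. Each group had 3 libraries labelled as biological replicates, but replicates 2 and 3 of input Veh were identical in all 117135 transcripts and were counted as 1, so n = 2 for input Veh and n = 3 for the other groups. The number of mice behind a replicate was not given in the sources used here. If replicates were not separate cultures, p reflects only how these libraries scatter, which may be technical.

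Caveolae are small flask-shaped pits of the plasma membrane that are dense in adipocytes, endothelium and smooth muscle. Caveolins insert into the inner leaflet as oligomers and form the coat with cholesterol. Cavins bind this coat from the cytosol and stabilise its curvature, and the ATPase EHD2 sits at the neck of the pit and holds it at the surface. Loss of CAV1 or of CAVIN1 causes lipodystrophy, and fat is a tissue in which caveolae take part in lipid uptake and insulin signalling.

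Because the libraries compare mRNAs on ribosomes with all mRNAs, the bases around the start codons, where ribosomes begin, are shown for the main transcript of each gene and for the second abundant transcript of Cav1. Each line gives 12 bases before the start codon, the start codon in capitals and 5 bases after it, from GENCODE M21 (GRCm38).
Cav1-201: ccacgcgccagcATGtctgg
Cav1-202: aacaacaaggccATGgcaga
Cav2-201: acgccagccacgATGgggct
Cavin1-201: ctccgggaagccATGgagga
Cavin2-201: agctgcccagccATGggaga
Cavin3-201: tggtcagagatcATGgggga
Ehd2-201: tcgaaagtcaccATGttcag
A purine lay 3 bases before the start codon in all 7, as it did in 86.2% of 12983 expressed genes with a long enough leader. A G followed the start codon in 5 of the 7 and in 52.6% of the genes, and the exceptions were Cav1-201 and Ehd2-201. Whether these bases go with the difference between the fractions was not tested.

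Cav1 (ENSMUSG00000007655, chr6:17306335-17341452, + strand), the structural caveolin of nonmuscle cells, was higher in polysome than in input under both treatments. Input held 346 and 282 CPM (reads of a gene per M reads of its library, scaled for library composition) in Veh and 342, 393 and 379 CPM in Rosi. The polysome fraction held 621, 461 and 499 CPM in Veh and 602, 642 and 659 CPM in Rosi. The lowest polysome library lay above the highest input library in each treatment. On the log2 scale, polysome exceeded input by 0.75 ± 0.13 (SE) in Veh (edgeR quasi-likelihood test, adjusted p = 0.000252) and by 0.77 ± 0.12 in Rosi (adjusted p = 4.53e-05), or 1.68 and 1.71 times the input level. CPM is relative to the mRNA of its own fraction, so these values say where Cav1 stood among other mRNAs of a fraction and not what share of it was on ribosomes.

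Cav2 (ENSMUSG00000000058, chr6:17281185-17289115, + strand) lies on the same strand as Cav1, with 17219 bases between the genes, and its protein joins CAV1 in mixed oligomers. Cav2 had 40.7 and 57.6 CPM in input Veh and 47.4, 39.8 and 37.0 CPM in input Rosi. Polysome values were 98.4, 79.2 and 81.4 CPM in Veh and 104, 94.2 and 107 CPM in Rosi. As for Cav1, no polysome library overlapped the input libraries. The log2 difference was 0.81 ± 0.15 in Veh (adjusted p = 0.000511) and 1.30 ± 0.14 in Rosi (adjusted p = 2.11e-06), and the latter ranked 355th from the highest of 14042 genes. The Veh value depended on the input Veh library left in, since it was 0.59 without replicate 1 and 1.08 without replicate 2.

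Cavin1 (ENSMUSG00000004044, chr11:100956733-100970887, − strand), the cavin without which caveolae do not form, went the other way. Its input level was 809 and 740 CPM in Veh and 901, 748 and 814 CPM in Rosi. Its polysome level was 414, 414 and 449 CPM in Veh and 527, 573 and 492 CPM in Rosi. Every polysome library lay below every input library. The log2 difference was -0.86 ± 0.10 in Veh (adjusted p = 9.79e-06) and -0.63 ± 0.09 in Rosi (adjusted p = 4.56e-05), so that polysome held 0.549 and 0.646 times the input level.

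Ehd2 (ENSMUSG00000074364, chr7:15946958-15967567, − strand), the neck ATPase, had the widest gap of the 6. Input held 640 and 561 CPM in Veh and 624, 495 and 546 CPM in Rosi. Polysome held 195, 204 and 241 CPM in Veh and 247, 235 and 218 CPM in Rosi. The highest polysome library was below the lowest input library by a wide margin in both treatments. Polysome was 0.355 times input in Veh (log2 -1.49 ± 0.12, adjusted p = 4.46e-07) and 0.421 times in Rosi (log2 -1.25 ± 0.11, adjusted p = 5.51e-07), which placed Ehd2 at the 2.2 and 2.8 percentile of all genes tested.

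Cavin2 and Cavin3 differed little between the fractions. Cavin2 (ENSMUSG00000045954, chr1:51289126-51302960, + strand), a cavin that promotes membrane curvature, had 56.0 and 52.1 CPM in input Veh, 71.2, 64.4 and 64.1 CPM in input Rosi, 74.2, 46.4 and 59.0 CPM in polysome Veh, and 79.0, 66.5 and 76.0 CPM in polysome Rosi. Cavin3 (ENSMUSG00000037060, chr7:105480083-105482300, − strand), which binds protein kinase C delta, had 112 and 113 CPM in input Veh, 134, 121 and 123 CPM in input Rosi, 91.7, 89.1 and 114 CPM in polysome Veh, and 130, 113 and 113 CPM in polysome Rosi. In both genes the fractions overlapped under each treatment. The polysome over input log2 difference of Cavin2 was 0.15 in Veh, with a 95% interval of -0.18 to 0.48 (adjusted p = 0.453), and 0.15 in Rosi (interval -0.14 to 0.44, adjusted p = 0.372). For Cavin3 it was -0.20 in Veh (interval -0.45 to 0.06, adjusted p = 0.186) and -0.08 in Rosi (interval -0.31 to 0.14, adjusted p = 0.532). These intervals leave out the differences measured for the caveolins, Cavin1 and Ehd2, although the difference between members was not itself tested.

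**Figure D1:**
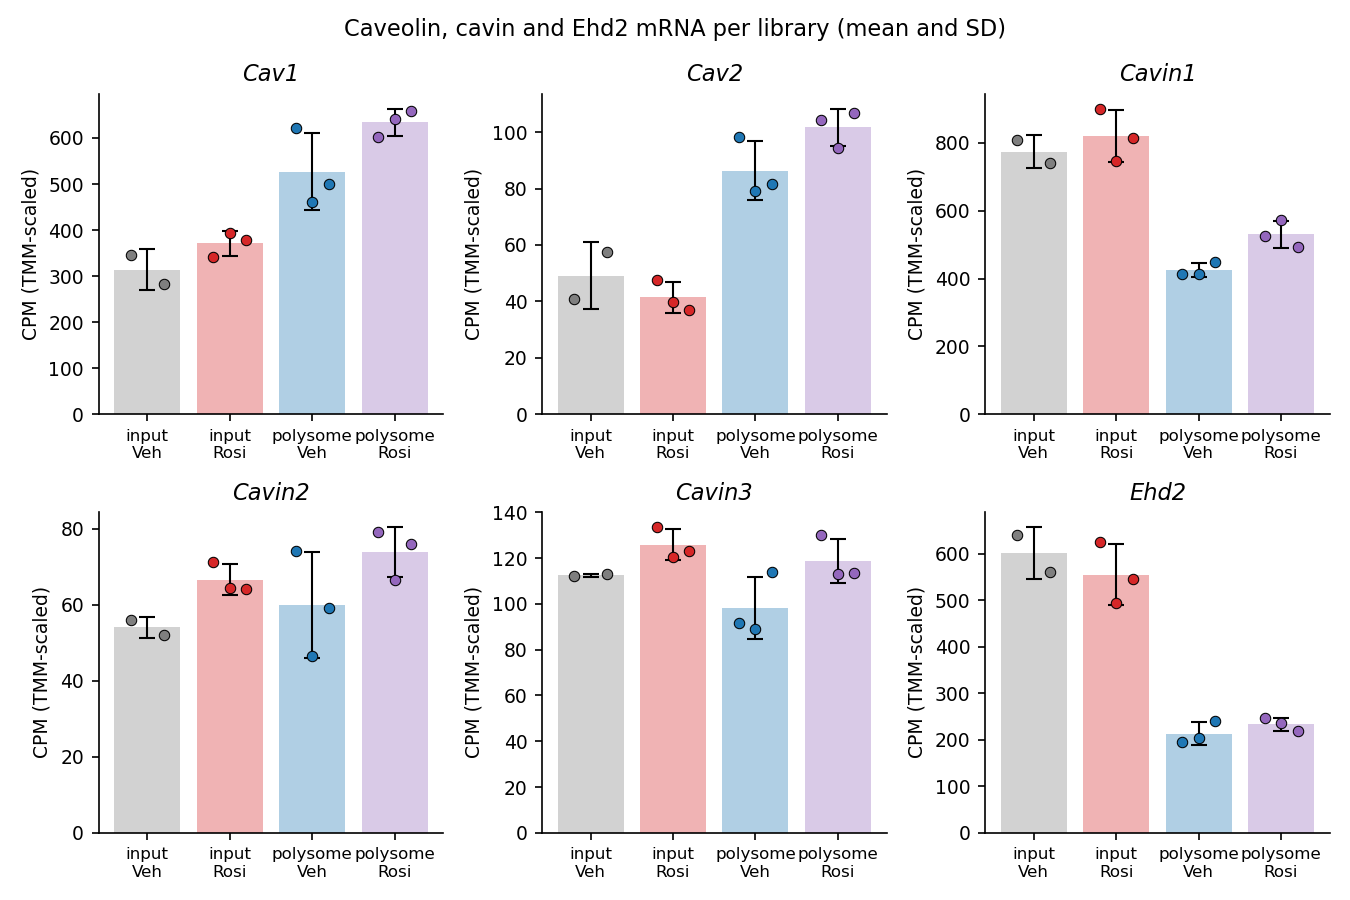
CPM of each gene (y axis, from 0) in input Veh (2 libraries), input Rosi, polysome Veh and polysome Rosi (3 libraries each), where points are libraries, bars the group mean and whiskers the SD. Cav1 and Cav2 points lie higher in polysome than in input, Cavin1 and Ehd2 points lie lower, and those of Cavin2 and Cavin3 overlap.

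To be called for polysome over input, a gene needed an adjusted p under 0.05 together with a log2 difference beyond 1 in size. By this rule 1 of the 6 was called in Veh (Ehd2, lower) where 9.67% of 14042 genes were called, 2.99% higher and 6.68% lower. In Rosi 2 of the 6 were called (Cav2 higher, Ehd2 lower), where 11.3% of genes were, 6.49% higher and 4.86% lower. By the adjusted p alone, 2 were higher and 2 lower under each treatment, against 24.7% of all genes higher and 24.6% lower in Veh (49.3% together) and 29.1% higher and 26% lower in Rosi (55.1% together). Groups without overlap, as in Cav1, Cav2, Cavin1 and Ehd2, were found for 64% of genes in Veh and 65.5% in Rosi. A difference between the fractions was thus common among genes, and the 6 were divided in direction, with a median of -0.02 in Veh and 0.03 in Rosi beside 0.02 and 0 over all genes. The first polysome Veh library stood apart from the rest of its group on the first principal component (-53.1, against -27.2 and -21.4). Without it the Veh differences were 0.60 for Cav1, 0.70 for Cav2, -0.85 for Cavin1 and -1.44 for Ehd2, and each kept an adjusted p under 0.05.

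**Figure D2:**
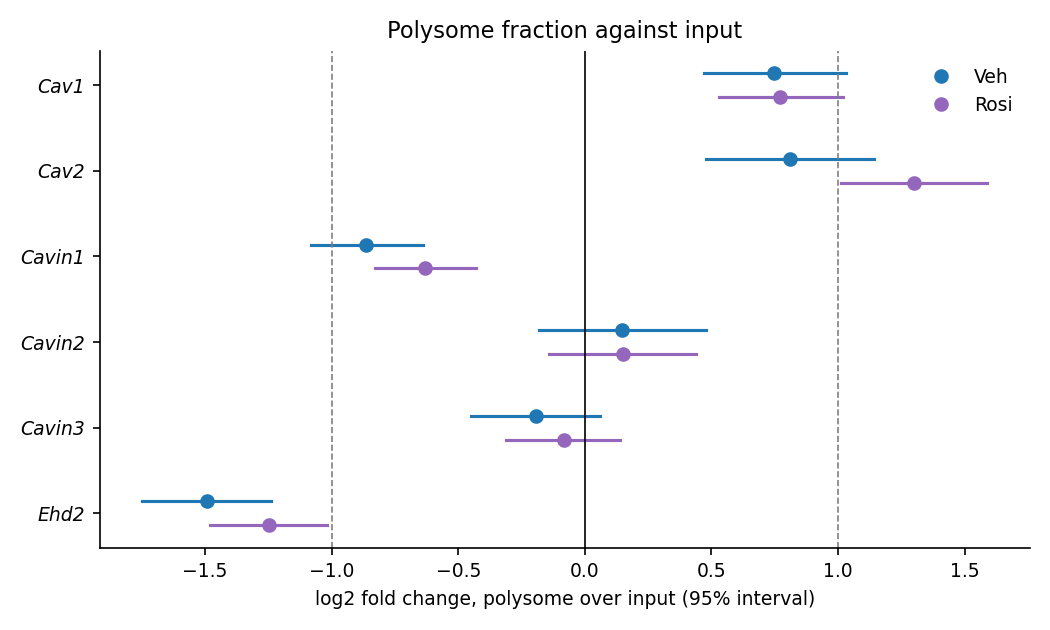
Log2 fold change of polysome over input (x axis) for each gene in Veh (blue) and Rosi (purple), with 95% intervals as bars and dashed lines at -1 and 1. Cav1 and Cav2 lie to the right of 0, Cavin1 and Ehd2 to the left, and the Cavin2 and Cavin3 intervals include 0.

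The opposite shifts changed the order of the mRNAs. Per length, in TPM (transcripts per M transcripts, which corrects for length), the order in input Veh was Cavin1 (278 ± 32.2, SD), Cav1 (166 ± 27.7), Ehd2 (144 ± 19.8), Cavin3 (94.7 ± 4.77), Cav2 (23.1 ± 3.96) and Cavin2 (22.3 ± 2.39). Cav1 and Ehd2 overlapped there, as did Cav2 and Cavin2, and the other neighbours did not. In input Rosi the order was Cavin1 (319 ± 25.3), Cav1 (219 ± 19.6), Ehd2 (141 ± 13.5), Cavin3 (115 ± 4.09), Cavin2 (29.7 ± 0.858) and Cav2 (21.1 ± 1.99), with no overlap between neighbours. In polysome Cav1 came first, at 308 ± 42.6 TPM in Veh and 377 ± 19.0 in Rosi, followed by Cavin1 at 162 ± 14.6 and 203 ± 19.5 and Cavin3 at 88.1 ± 15.9 and 107 ± 13.1. Ehd2 was the fourth there, at 53.4 ± 8.46 and 58.7 ± 5.91 TPM, and it overlapped with Cav2 (43.4 ± 3.69 and 50.9 ± 3.68) under both treatments, above Cavin2 (26.1 ± 5.53 and 32.6 ± 3.58).

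Ratios within a library show the same shift among these mRNAs. The TPM of Cav1 was 0.574 to 0.618 times that of Cavin1 in input Veh and 0.585 to 0.781 times in input Rosi, but 1.66 to 2.31 times in polysome Veh and 1.75 to 2.00 times in polysome Rosi. Cav1 over Ehd2 was 1.13 to 1.18 in input Veh, 1.29 to 1.79 in input Rosi, 5.01 to 7.43 in polysome Veh and 5.72 to 6.88 in polysome Rosi. Cav1 thus exceeded Cavin1 in every polysome library and in no input library. The TPM of all 6 together was 669 and 787 in input Veh, and it ranged from 801 to 876 in input Rosi, 610 to 732 in polysome Veh and 778 to 857 in polysome Rosi.

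The main transcripts of the 6 differed in features that went with the fraction across all genes. The caveolins have short coding parts (178 codons in Cav1 and 162 in Cav2) and transcripts poor in G and C (42.6% and 37.5%). The low G+C lay after the coding part (39.4% and 30.8%), while the coding part had 50.6% and 52.3% and the leader 59.1% and 75.6%. Cavin1, with 392 codons and 57.3% G+C, Cavin3, with 260 codons and 56.4%, and Ehd2, with 543 codons and 54.5%, lie on the G+C-rich side, and Cavin2, with 418 codons, has 44.4%. Across 13512 genes with a coding main transcript, polysome over input was lower at higher G+C content (Spearman's rho -0.663 in Veh and -0.683 in Rosi), and less so with coding length (-0.301 and -0.317), and these are descriptions across genes of the same libraries. The median log2 difference was 0.54 in Veh and 0.74 in Rosi in the poorest of 5 equal bins of genes by G+C, and -0.55 and -0.45 in the richest. Each gene was then set beside the genes of its own bin. Cav1 was at the 71.4 percentile of its bin in Veh and the 53.8 in Rosi, and Cav2 at the 77 and 90.9. Cavin1 was at the 26.6 and 32.9 percentile of its bin, Cavin2 at the 31.5 and 34.6, and Cavin3 at the 79.3 and 83.5. Ehd2 was low also among genes of like composition, at the 4.03 percentile in Veh and the 4.81 in Rosi, and it was at the 1.81 and 2.04 percentile among genes of like coding length. By coding length Cavin1 was at the 9.25 and 13.4 percentile, Cav1 at the 81.5 and 76.4, and Cav2 at the 84.6 and 95.9. Cavin2 was at the 60.6 and 62 percentile by this length, and Cavin3 at the 33.4 and 39.5. The part of G+C content or length in the differences of these genes was not tested.

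**Figure D3:**
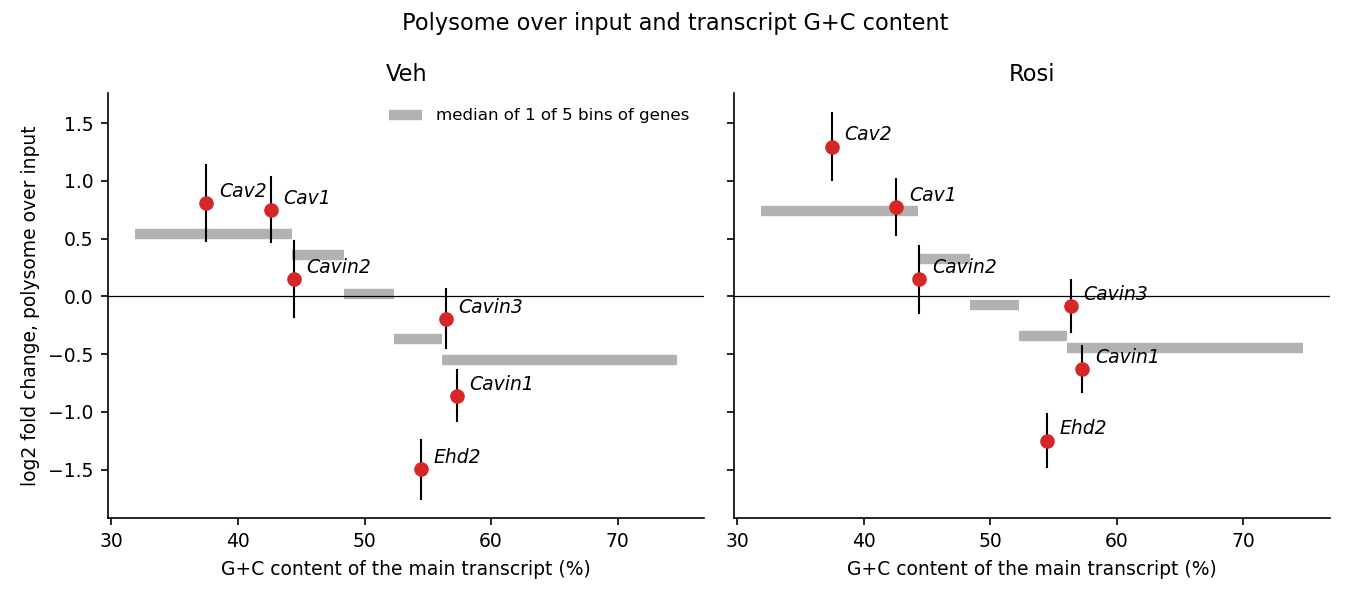
Log2 fold change of polysome over input (y axis) against the G+C content of the main transcript (x axis, %) in Veh (left) and Rosi (right), with the genes in red, their 95% intervals as vertical lines, and grey bars for the median of each of 5 bins of 13512 genes over its range of G+C content. The grey bars step down from left to right, Cav1 and Cav2 lie at the upper left, and Ehd2 lies below the bar of its bin.

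Cav1 had more than a single abundant transcript, which differ in the protein made. Cav1-201 encodes the full-length alpha form, and Cav1-202, whose start codon at chr6 position 17307944 is codon 32 of the alpha form, encodes the beta form of 147 codons, which lacks the part with the tyrosine that Src phosphorylates. The coding bases of Cav1-201 from its start codon, at chr6 position 17306450, through the start codon of the beta form are shown with both start codons in capitals.
Cav1-201 alpha to beta start: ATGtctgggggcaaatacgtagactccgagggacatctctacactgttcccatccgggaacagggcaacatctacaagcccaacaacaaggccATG
The 93 bases before the second start codon are absent from the coding part of Cav1-202. Of the Cav1 reads, Cav1-202 took 22.2 and 15.8% in input Veh, 22.3, 25.5 and 20.7% in input Rosi, 12.9, 19.0 and 18.9% in polysome Veh, and 20.4, 17.7 and 19.8% in polysome Rosi, as Salmon divided reads between transcripts. The fractions overlapped in Veh, while in Rosi the lowest input share lay just above the highest polysome share. Over both treatments, which the test did not separate, the mean share was 3.21 points lower in polysome (18.1% ± 2.72, SD, n = 6) than in input (21.3% ± 3.55, n = 5), which did not pass an exact permutation test (two-sided p = 0.134, adjusted p = 0.221 over 2 isoforms, where the smallest possible is 0.00433). Cav1-201 took 77.4% ± 3.70 in input and 80.1% ± 2.64 in polysome (exact permutation p = 0.221). Cav1-201 and Cav1-202 hold nearly all Cav1 reads, so their shares mirror each other and are not separate observations. Cav1-201 thus overlapped between fractions in Veh and not in Rosi (72.9 to 78.0% in input, 78.2 to 80.1% in polysome). How often isoform shares lie apart in this way over all genes was not counted. Neither the fractions within a treatment nor Rosi against Veh were tested. In the other 5 genes a single transcript held 99.5% or more of the reads in every library.

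**Figure D4:**
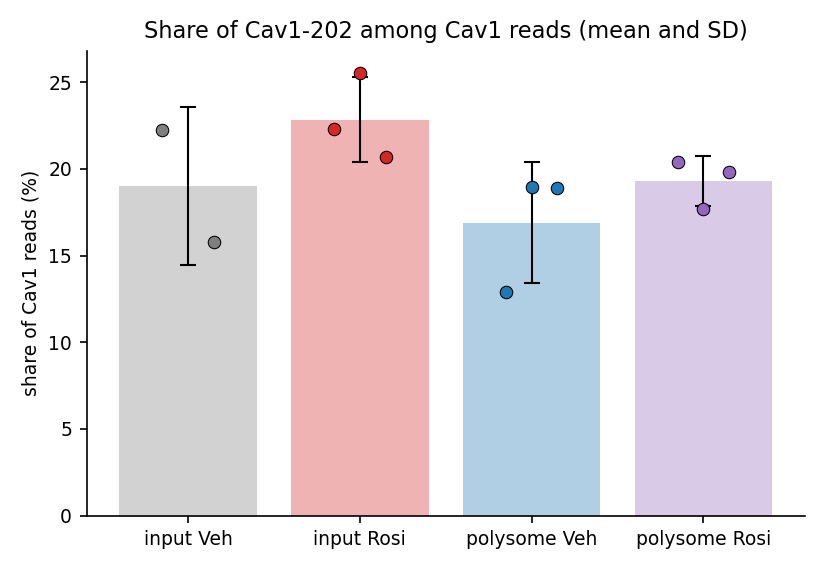
Share of Cav1 reads assigned to Cav1-202, the beta transcript (y axis, %, from 0), in the 4 groups, where points are libraries, bars the group mean and whiskers the SD. Shares run from 12.9 to 25.5%, and input and polysome libraries overlap in Veh but not in Rosi, where the lowest input share is 20.7% and the highest polysome share 20.4%.

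None of the 6 mRNAs passed the test for Rosi against Veh in the input. The rule here was an adjusted p under 0.05 with a log2 fold change beyond 0.2 in size, and 1.34% of 13603 genes met it. Cavin2 came closest, at 0.37 ± 0.10 (adjusted p = 0.0866), with both Veh libraries below all Rosi libraries. Cav1 was at 0.31 ± 0.11 (adjusted p = 0.173), and Cavin3 at 0.23 ± 0.09 (adjusted p = 0.214), also without overlap, as were 36.2% of all genes. Cavin1 (0.15, 95% interval -0.05 to 0.35), Ehd2 (-0.05, interval -0.27 to 0.17) and Cav2 (-0.18, interval -0.48 to 0.12) had intervals that include 0. The unadjusted p was under 0.05 for Cav1, Cavin2 and Cavin3, and for 17% of all genes. Cavin2 passed by DESeq2 (adjusted p = 0.0433), and Cav1 (0.37, adjusted p = 0.0161) and Cavin2 (0.33, adjusted p = 0.0317) passed without input Rosi replicate 1. The input Veh libraries moved Cav1 both ways, to 0.47 (adjusted p = 0.0979) without replicate 1 and 0.17 (adjusted p = 0.774) without replicate 2, and over all alternatives its adjusted p ran from 0.0161 to 0.774 and that of Cavin2 from 0.0185 to 0.510.

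In the polysome fraction all 6 log2 fold changes of Rosi over Veh were above 0, and none was called, where 0.655% of 13436 genes were. Cavin1 was the highest, at 0.31 ± 0.10 (adjusted p = 0.610), with Rosi libraries above all Veh libraries as in 9.17% of genes. The others were 0.29 for Cavin2, 0.26 for Cavin3 and Cav1, 0.23 for Cav2 and 0.12 for Ehd2, each with an adjusted p of 1. Without polysome Veh replicate 1, the library that stood apart, Cavin2 was at 0.48 (adjusted p = 0.0955), Cav1 at 0.39 (adjusted p = 0.0645) and Ehd2 at 0.06, and without polysome Veh replicate 2 Cavin2 was at 0.15. Without polysome Veh replicate 3, Ehd2 was at 0.21. The median of the 6 was 0.26 beside -0.01 over all genes, and the unadjusted p was under 0.05 for Cavin1 and Cavin3 and for 4.73% of all genes. The sign was the same in input and polysome for 4 of the genes and differed for Cav2 and Ehd2.

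**Figure D5:**
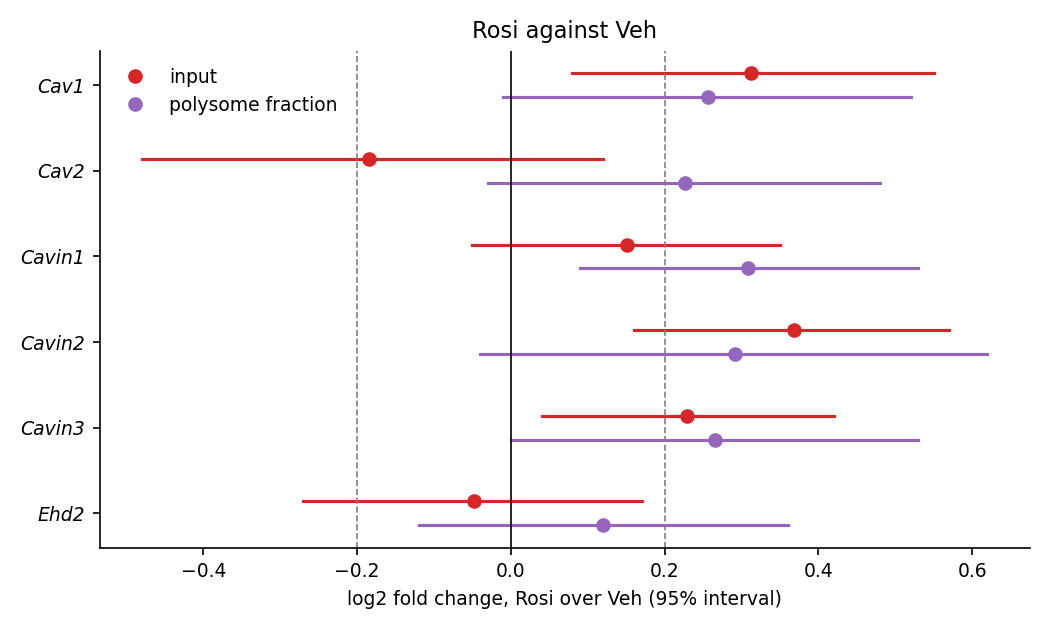
Log2 fold change of Rosi over Veh (x axis) for each gene in input (red) and polysome (purple), with 95% intervals as bars and dashed lines at -0.2 and 0.2. Points lie between -0.18 and 0.37, and no gene passed the adjusted test.

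Whether Rosi moved an mRNA on or off polysomes more than its input level was asked with the interaction of fraction and treatment, which the study calls translation efficiency. No gene of 14042 was called by edgeR, although 961 (6.84%) had an unadjusted p under 0.05 and DESeq2 called 1. Cav2 had the highest value of the 6, at 0.49 ± 0.20 (unadjusted p = 0.0288, adjusted p = 0.719), and it fell to 0.21 without input Veh replicate 2. Ehd2 (0.24), Cavin1 (0.23), Cavin3 (0.11), Cav1 (0.02) and Cavin2 (0.00) had adjusted p-values between 0.742 and 1. The 95% interval of Cav1, -0.34 to 0.39, and that of Cavin2, -0.44 to 0.44, bound the size of a difference in these genes.

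The Rosi values stand beside a clear response of adipocyte genes. Of 13 adipocyte markers, 9 were called higher in input and 10 in polysome, among them Adipoq (log2 6.38 in input), Plin1 (4.93) and Fabp4 (2.73). Over all genes 1.34% were called in input and 0.655% in polysome, in either direction. Adipoq started from 3 and 11 reads in input Veh and Plin1 from 19 and 34. In input Rosi they reached 29.3 to 36.3 and 36.5 to 53.0 CPM. Fabp4 had 65.4 and 68.3 CPM in input Veh and 412 to 433 CPM in input Rosi. Macrophage markers had lower values with Rosi, with all 12 below 0 in input (median -0.37, called for Lyz2 at -0.45 and Msr1 at -0.45) and in polysome (median -0.18, none called). Their summed level was 16840 and 19310 CPM in input Veh and 12070 to 14180 CPM in input Rosi. Most of it was Lyz2, at 10200 and 11170 CPM in input Veh and 7206 to 7939 CPM in input Rosi. In polysome the sums overlapped, at 16740 to 21830 CPM in Veh and 15050 to 19060 CPM in Rosi. In bulk RNA, fewer cells of a type and less RNA per cell cannot be told apart, and the part of this shift in the values of the 6 genes was not tested. Caveolae are plentiful in endothelium and smooth muscle too. Endothelial markers summed to 82.8 to 106 CPM for all 14 together, and most of this was Flt1 (63.4 to 78.2 CPM). Cdh5 had 68 to 299 reads a library and Pecam1 1 to 20. Smooth muscle and pericyte markers summed to 11020 to 12540 CPM in input and 8149 to 9795 CPM in polysome. Most of the input sum was Acta2 (5329 to 6410 CPM) and Tagln (4340 to 4913 CPM). Other members were far lower, with Rgs5 at 4 to 10 reads a library in input. Of the 11 tested, 1, Mcam, was called with Rosi in input (0.60). Progenitor and fibroblast markers summed to 4441 to 5677 CPM in input and 2191 to 2783 CPM in polysome, and none was called with Rosi. Most of this sum was Col1a1 (3317 to 4359 CPM in input, 1168 to 1658 CPM in polysome), and Dpp4 had 3 to 14 reads a library in input. Of the 12 markers, 6 were higher and 6 lower in polysome than in input under each treatment.

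Other proteins of caveolae gave no member called with Rosi in either fraction, among 15 listed genes of which 13 or 14 passed the filter. With 1.34% of all genes called in input and 0.655% in polysome, a list this short would seldom hold a call. For polysome over input, 3 of 14 were called lower in Veh, where 6.68% of all genes were, namely Ehd1 (-1.07), a paralog of Ehd2 in endosomal recycling, Dnm2 (-1.57), the dynamin that cuts pits free, and Flna (-1.63), the actin crosslinker that binds caveolin. In Rosi, where 4.86% of all genes were called lower and 6.49% higher, Dnm2 (-1.30) and Flna (-1.33) were called lower, and Ehd1 was at -0.79 (adjusted p = 6.98e-06). The muscle caveolin Cav3 was called higher in Rosi (1.16, adjusted p = 0.0499) on 5 to 9 reads a library in input and 10 to 21 in polysome. The list had a median of -0.38 in Veh and -0.35 in Rosi, beside 0.02 and 0 over all genes.

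Of 9 proteins that caveolae or flotillin domains are known to hold, 8 passed the filter, and 1 was called with Rosi, where 1.34% of all genes were in input and 0.655% in polysome. Cd36, the fatty acid receptor of caveolae and a known PPARγ target, was higher in input (0.89, adjusted p = 0.000478), from 172 and 204 CPM in Veh to 306 to 357 CPM in Rosi, and in polysome (1.03, adjusted p = 0.000599). The insulin receptor gene Insr was at 0.23 in input (adjusted p = 0.355) and -0.01 in polysome. Tgfbr1, a TGF-beta receptor that is internalised through caveolae, was called higher in polysome than in input under Rosi (1.15, adjusted p = 2.87e-06) and had 0.84 in Veh (adjusted p = 0.000186).

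Genes with the most similar pattern over the 11 libraries were found by the root mean square difference of centred log2 CPM among 11439 genes. For Cav1 they were Golga5 (0.072) and Etfa (0.080), for Cav2 Ndufaf4 (0.084) and Cnot7 (0.096), and for Cavin1 Slco2a1 (0.091) and Qsox1 (0.094). Cavin2 was nearest to Sparcl1 (0.104) and Zfpm2 (0.112), Cavin3 to Tmem98 (0.069) and Rtl8b (0.073), and Ehd2 to Gsn (0.077) and Fhod1 (0.086). The closest pair of members was Cavin2 and Cavin3, at 0.217, where Cavin3 ranked 439th for Cavin2 and Cavin2 1917th for Cavin3. Both varied little over the libraries, with an SD of log2 CPM of 0.240 and 0.182, against 0.423 to 0.722 in the other members. Genes that vary little lie close by this measure, so the value does not show a shared pattern. Cav1 and Cav2 were each other's nearest member at 0.320, where Cav2 ranked 3436th for Cav1 and Cav1 1839th for Cav2. The nearest member to Cavin1 was Cavin3 (0.313, rank 3179) and to Ehd2 Cavin1 (0.321, rank 1020).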

How the data were processed

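The authors demultiplexed reads with bcl2fastq 2.17, quantified transcripts with Salmon against mm10 (other versions not given in the sources used here) and deposited, per library, an estimated count and a TPM for each transcript. The 17.4 to 24.0 M estimated counts per library bound the precision, and SDs and intervals cover the spread between libraries. The series text gives another length of culture than the protocols, and the day in the protocols was kept. Libraries titled with the tissue name were taken as the polysome pool. Of 117135 transcripts, 115973 matched GENCODE M21, and the rest held 0.381 to 0.464% of reads. Estimated counts were summed per gene and rounded. Genes were tested with edgeR 4.0.16 (R 4.3.3; quasi-likelihood, filterByExpr, TMM, two-sided, Benjamini-Hochberg over all genes), input and polysome each alone for Rosi and all 4 groups together otherwise, and the code was tested on simulated data. Alternatives were DESeq2 1.42.0, RLE factors, other filters, limma 3.58.1 on log2(TPM + 1), all 12 libraries, each library left out, and the replicate number as a block. All 6 genes, called members of the caveola and cargo lists, up to 4 members of each marker list and 2 similar genes per member are named. Not every marker list or gene so selected is described. The genes and lists were chosen with earlier results of these data known.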

Additional observations from a re-analysis of the deposited data

How the results depend on the processing

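The polysome over input values of Cav1, Cav2, Cavin1 and Ehd2 kept their direction and an adjusted p under 0.05 in all 19 alternatives and both treatments (Cav1 0.60 to 0.90 in Veh and 0.71 to 0.81 in Rosi, Cav2 0.59 to 1.08 and 1.22 to 1.41, Cavin1 -0.93 to -0.77 and -0.69 to -0.56, Ehd2 -1.59 to -1.39 and -1.33 to -1.16). Values near 0 could turn: Cav2 for Rosi in input kept its sign in 13 of 14 alternatives, Ehd2 in 11 of 14, Cavin2 for polysome over input in Veh in 18 of 19, and the interaction of Cav1 in 12 and of Cavin2 in 2 of 19, none called.

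Counts of called genes moved more than these values. For Rosi in input (182 genes, 0 of the 6) they were 353 by DESeq2 (1 of the 6), 907 without a count filter (2) and 57 by limma on TPM. They were 1054 with all 12 libraries (2) and 77 in 1 fit of all groups. The setting with 12 libraries counts the identical input Veh file as 2 replicates, which understates the spread in that group. Leaving out a library gave 66 (without input Veh replicate 2) to 1580 (without input Rosi replicate 1) and 0 to 2 of the 6. Cavin2 was called in each of the 4 settings that called a member, Cav1 without the filter (adjusted p = 0.0309) and without input Rosi replicate 1, and Cavin3 with all 12 libraries (0.0483). For Rosi in polysome (88) they were 189 without a filter and 37 by limma, and 55 (without polysome Veh replicate 2) to 179 (without polysome Veh replicate 1) with a library left out. For polysome over input limma gave 844 in Veh (1358) and 876 in Rosi (1593), and left-out libraries 995 to 1705 and 1351 to 1769, with 1 or 2 of the 6 in Veh (2 without input Veh replicate 2) and 2 in Rosi. For the interaction (0) DESeq2 gave 1, no filter 57, and left-out libraries 0 to 9 (9 without polysome Veh replicate 1). The cause was not tested.

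Same-numbered libraries showed little shared deviation (15 correlations, -0.233 to 0.114). With 2 or 3 libraries in a group, and the number of the identical input Veh file uncertain, this check cannot exclude pairing. With the replicate number as a block, with the single copy as number 2 or 3, counts were 187 and 123 for Rosi in input, 102 in polysome, 1353 and 1362 for polysome over input in Veh, 1597 and 1593 in Rosi, and 0 for the interaction, with no change in the number of the 6 called. An isoform minimum of 10% in place of 5% tested the same 2 Cav1 isoforms. Standard errors of the 6 were largest for the interaction (0.14 to 0.21).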
